A study of Mus musculus with 28 samples.

Results

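Long noncoding RNAs are transcripts that act without being translated. The 9 genes Neat1, Malat1, Gas5, Snhg1, Snhg5, Snhg12, H19, Meg3 and Kcnq1ot1 were described here in cultured 3LL cells and in the tumors that these cells formed. They were chosen by symbol: every row of the deposited table that carries 1 of these symbols. All 9 symbols were present, with 1 row each, among 18509 rows with a symbol and 43143 rows in all, and the 9 genes have 50 rows when rows without a symbol are included. 3LL is a mouse Lewis lung carcinoma line, and RNA was sequenced after removal of ribosomal RNA, which leaves RNAs without a poly(A) tail in the libraries. The series has 28 libraries in 7 groups of 4, and it asks how deletion of KEAP1, and of NRF2 on top of it, changes cancer cells and the tumors around them.

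WT cells are the unedited 3LL line. KEAP1-KO cells carry a homozygous insertion of 1 base pair in exon 2 of Keap1, which encodes the protein that marks the transcription factor NRF2 for degradation. DKO cells are KEAP1-KO cells in which exon 5 of Nrf2 (Nfe2l2) was edited as well, so all DKO samples carry the Keap1 insertion too. Each edited line was grown from a single colony, and the labels do not say whether the 4 libraries of a cell group came from separate cultures, so their p-values measure only the spread between these libraries. Tumors were grown under the skin of male albino C57BL/6 mice of 6 weeks, which are immunocompetent, and were taken at day 10. Each mouse of Experiment A bore WT cells in the left flank and KEAP1-KO cells in the right, and each mouse of Experiment B KEAP1-KO cells in the left and DKO cells in the right. Genotype and flank therefore cannot be told apart within an experiment, and DKO and WT tumors differ in genotype and in experiment and flank as well. These are bulk samples, in which fewer cells of a type and less RNA per cell cannot be told apart.

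Neat1 is the scaffold of paraspeckles, nuclear bodies that hold RNA-binding proteins, and Malat1 is its neighbour on the chromosome and collects in nuclear speckles, where splicing factors are stored. Gas5, Snhg1, Snhg5 and Snhg12 are hosts of small nucleolar RNAs (snoRNAs), which are cut out of their introns, while the spliced remainder is in large part degraded by nonsense-mediated decay. H19, Meg3 and Kcnq1ot1 are imprinted, that is, they are transcribed from the allele of 1 parent, and Kcnq1ot1 runs antisense through the Kcnq1 gene and silences its neighbours in cis.

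The kind of row limits what each value covers. Neat1, Malat1 and Snhg1 lie on chromosome 19, H19 and Kcnq1ot1 on 7, Gas5 on 1, Snhg12 on 4, Snhg5 on 9 and Meg3 on 12. Neat1 and Kcnq1ot1 were listed as gene rows. The symbol row of Malat1 is a lincRNA transcript of 6983 bases, that of Snhg1 a lincRNA of 605 bases, that of Snhg12 a lincRNA of 1213 bases, that of H19 a lincRNA of 2286 bases and that of Meg3 a lincRNA of 1498 bases in GENCODE vM21. The symbol row of Gas5 is a retained intron of 600 bases, and all 14 Gas5 rows are annotated as retained introns, transcripts that keep at least 1 intron. That of Snhg5 has an identifier outside vM21. Snhg1 has 15 rows, of which 12 are retained introns, Snhg12 has 6, Snhg5 has 4, Meg3 has 4, Malat1 has 3 and H19 has 2. Results are therefore given for the symbol row and, beside it, for the sum of all rows of a gene. The short and long forms of Neat1 share 1 row, and whether strand was used in counting is not given in the sources used here, so reads of Kcnq1ot1 and of Kcnq1 introns may not be separated. Levels are compared between groups for 1 gene at a time and not between genes.

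The start regions of the snoRNA hosts are shown first because these 4 genes carry the results that depend on the row chosen. RefSeq promoter windows of GRCm38.p6, from 250 bases before to 50 bases after a start, were found for 7 of the 9 members, and Neat1 and H19 were not among them. The letters TATA on the transcribed strand, wholly between 40 and 15 bases before the start, were present in 5.91% of the 32851 windows searched, and each of the 4 hosts held them at 1 start. The sequences below run 5′ to 3′ from 50 bases before the start to 50 bases after it, with TATA in capitals, overlapping matches joined. They lie at chr19:8723437-8723536 (plus strand, Snhg1), chr9:88522848-88522947 (minus strand, Snhg5), chr4:132308628-132308727 (plus strand, Snhg12) and chr1:161035116-161035215 (plus strand, the second of the 2 Gas5 starts).
Snhg1: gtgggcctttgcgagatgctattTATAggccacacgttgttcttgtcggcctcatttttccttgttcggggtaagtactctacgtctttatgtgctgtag
Snhg5: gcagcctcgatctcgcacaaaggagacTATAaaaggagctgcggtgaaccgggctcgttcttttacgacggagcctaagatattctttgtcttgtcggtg
Snhg12: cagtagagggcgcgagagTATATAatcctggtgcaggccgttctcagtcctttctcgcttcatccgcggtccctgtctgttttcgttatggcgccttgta
Gas5: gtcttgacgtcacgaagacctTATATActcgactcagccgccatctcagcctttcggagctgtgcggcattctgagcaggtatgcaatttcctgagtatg

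The start regions of another pair are shown for contrast, Meg3 at chr12:109540946-109541045 (plus strand, the first of its 2 starts), which holds TATA in the same window, and Malat1 at chr19:5802623-5802722 (minus strand), which does not.
Meg3: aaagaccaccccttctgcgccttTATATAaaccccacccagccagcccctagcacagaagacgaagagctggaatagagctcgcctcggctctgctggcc
Malat1: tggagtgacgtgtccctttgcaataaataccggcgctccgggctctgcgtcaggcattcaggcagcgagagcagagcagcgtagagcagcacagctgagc

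The core of the antioxidant response element that NRF2 binds, TGACNNNGC, was searched on both strands of each whole window and was found in 12.4% of the 32851 windows. Among the members it was found in Kcnq1ot1, 1 time, starting 46 bases before the start, and in no window of the other 6 members with an entry. The 200 bases before the Kcnq1ot1 start, chr7:143296548-143296747 on the minus strand, are shown with the letters CCAAT in capitals, of which the window holds 3, against 37.4% of all windows with at least 1 on either strand.
Kcnq1ot1: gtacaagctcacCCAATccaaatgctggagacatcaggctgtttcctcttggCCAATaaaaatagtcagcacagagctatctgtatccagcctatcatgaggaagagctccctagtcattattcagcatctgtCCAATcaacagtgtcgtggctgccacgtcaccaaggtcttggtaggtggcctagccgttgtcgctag

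The libraries held between 4222324 and 7524322 reads recovered from the values (median 5619774), and a library had 13.9% to 23.5% of its rows at 0. Values are log2(normalized count + 4), where the normalized count is whole reads divided by 1 factor per library, so 0 reads read 2. A difference was called when limma's Benjamini-Hochberg adjusted p over all rows tested was under 0.05, with 16 tumors, 12 cell libraries or all 28 libraries in 1 fit. Rows entered a fit if 4 or more of its libraries held 5 or more normalized counts, which left 34215 rows for tumors, 29744 for cells and 37246 for all libraries. Of the 9 symbol rows 7 passed for tumors (not Gas5 and H19), 7 for cells (not H19 and Meg3) and 8 for all libraries (not H19). The edited genes separated the groups: the Keap1 row, a check of the labels, held between 648.5 and 750.8 normalized counts in WT cells and between 153.4 and 197.1 in KEAP1-KO and DKO cells, and the NRF2 target Nqo1 held between 3890.4 and 5416.1 in the Experiment B KEAP1-KO tumors and between 34.1 and 72 in DKO tumors. The Nfe2l2 row was not called between DKO and KEAP1-KO cells (adjusted p = 0.65 by limma), so it did not check the Nrf2 edit.

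Neat1 was called in each comparison between the cultured lines, and Neat1, Malat1 and Snhg1 in each comparison of tumors with cells. Between genotypes the counts of members called were mostly near the share of all rows called, and no count is read as a result about the members as a group. In KEAP1-KO against WT cells 1 of 7 tested symbol rows was called, Neat1, against 15.5% of all rows. For DKO against KEAP1-KO cells it was 1 of 7, again Neat1, against 8.83% of all rows, and in DKO against WT cells 3 of 7, Neat1, Snhg1 and Kcnq1ot1, against 17.7%. Experiment A gave 1 of 7 between KEAP1-KO and WT tumors, Kcnq1ot1, against 13.1% of all rows. The DKO tumors of Experiment B, set against their KEAP1-KO counterparts, gave 1 of 7, Malat1, against 8.86%, and set against WT tumors 1 of 7, Neat1, against 10.6%. Between the KEAP1-KO tumors of both experiments limma called 0 of 7, and 1 (Meg3) had an unadjusted p under 0.05, against 7.69% of all rows at that p and 0.164% of all rows called.

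Against cells of the same genotype, 4 of 8 tested symbol rows were called in WT tumors, beside 38.8% of all rows, 6 of 8 in the Experiment A KEAP1-KO tumors, beside 39.6%, 6 of 8 in those of Experiment B, beside 38.8%, and 5 of 8 in DKO tumors, beside 43.5%. Neat1 and Malat1 were higher and Snhg1 lower in tumors in all 4 of these comparisons. The counts also hold Meg3, which was at 0 in all cell libraries, and in Experiment B KEAP1-KO tumors Gas5, which was at 0 in those tumors, so these calls only set libraries with reads beside libraries without. The median over all rows was itself higher in tumors, by between 0.16 and 0.23 on the log2 scale, so a difference of that size does not set a gene apart. Of the tests of whether the effect of a genotype differed between tumors and cells, the one for KEAP1 called 0 of 8 members by limma (1 at an unadjusted p under 0.05, beside 16.3% of all rows, and 5.38% of all rows called), and the one for NRF2 co-deletion called 0 of 8 (4 at an unadjusted p under 0.05, beside 13.9% of all rows, and 3.67% of all rows called).

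**Figure D1:**
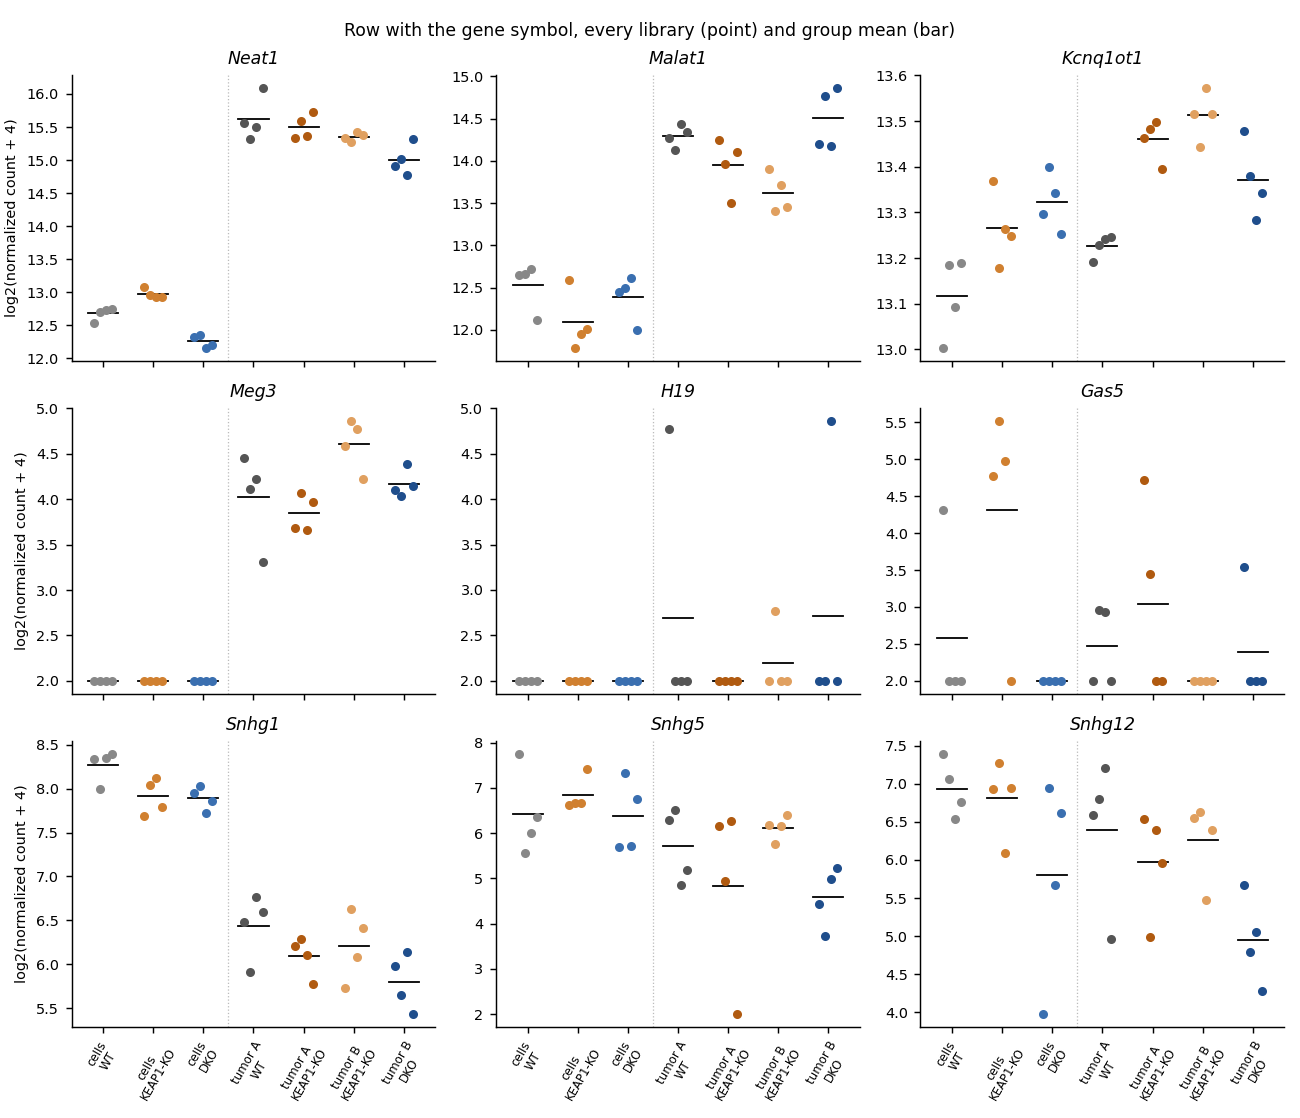
Values of the row with the symbol of each of the 9 genes, as log2(normalized count + 4) on the vertical axis, in the 7 groups on the horizontal axis. Points are libraries (4 per group), bars are group means, and a dotted line divides cells from tumors. Neat1, Malat1 and Meg3 sit higher in all tumors than in all cells, Snhg1 sits lower, and Kcnq1ot1 spans less than 1 log2 unit.

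Neat1 was the member with the clearest order among the cultured cells. The 4 WT libraries held 5936.2, 6674, 6771.4 and 6898 normalized counts, the KEAP1-KO libraries 8620.3, 7927.1, 7758.5 and 7767.1, and the DKO libraries 5129.8, 5216.6, 4582.9 and 4698.8. Every KEAP1-KO library was above every WT library, and every DKO library was below both other groups. The mean was 8018 ± 409 (SD, n = 4) in KEAP1-KO, 6570 ± 432 in WT and 4907 ± 313 in DKO cells. On the log2 scale KEAP1-KO cells were higher than WT cells by 0.29 ± 0.06 (SE), 1.22-fold, with a limma adjusted p of 0.0043, and DKO cells were lower than KEAP1-KO cells (log2 difference -0.71 ± 0.06), 1.63-fold, with an adjusted p of 5.1e-06. DKO cells were also lower than WT cells (log2 difference -0.42 ± 0.06, adjusted p = 0.00024 by limma). The first of these was not called without a trend in limma's variance (adjusted p = 0.069) or with all 28 libraries in the fit (adjusted p = 0.13).

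In tumors Neat1 was several-fold higher than in cells. WT tumors held 48304.9, 40938.2, 46365.9 and 70089.8 normalized counts, Experiment A KEAP1-KO tumors 41512.6, 49378.1, 41955.2 and 54312.4, Experiment B KEAP1-KO tumors 41357.5, 39442.2, 43822 and 42582.2, and DKO tumors 30844.2, 33092.7, 28045.7 and 41049. All 16 tumors were above all 12 cell libraries, while the tumor groups overlapped, and 3 of the 4 DKO tumors were below every other tumor. Neat1 took between 0.597% and 1.37% of all normalized counts in tumors and between 0.0725% and 0.144% in cells. The difference from cells of the same genotype was 2.94 ± 0.12 (log2, SE) in WT, 2.54 ± 0.12 in KEAP1-KO of Experiment A, 2.38 ± 0.12 in KEAP1-KO of Experiment B and 2.75 ± 0.12 in DKO tumors, between 5.21-fold and 7.67-fold, with limma adjusted p-values between 2.8e-16 and 2.4e-14.

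Among tumors, Neat1 was lower in DKO than in WT tumors by limma (log2 difference -0.61 ± 0.14, 95% interval -0.92 to -0.31, adjusted p = 0.011). The call was lost with quantile normalization (-0.27, adjusted p = 0.16) and with only both groups in the fit (adjusted p = 0.053). The steps in between were not called: KEAP1-KO against WT tumors differed by -0.12 (95% interval -0.42 to 0.19, adjusted p = 0.70 by limma), and DKO against KEAP1-KO tumors by -0.34 (95% interval -0.65 to -0.04, adjusted p = 0.18 by limma). The test of the difference between tumors and cells gave -0.40 ± 0.17 for the KEAP1 effect (adjusted p = 0.21 by limma) and 0.37 ± 0.17 for the NRF2 co-deletion effect (adjusted p = 0.33). With quantile normalization the second was 0.65 and was called (adjusted p = 0.0098 by limma), so whether the NRF2 co-deletion effect on Neat1 differed between tumors and cells depended on the scaling.

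Markers of host cells stood at very different levels in tumors and cells. The 8 leukocyte markers summed to at most 9.66 normalized counts in any cell library, with Tyrobp at 0 in all 12, and to between 3382.7 and 4208.5 in WT tumors, 770.08 and 916.93 in Experiment A KEAP1-KO tumors, 1294.5 and 1674.9 in those of Experiment B and 2248.7 and 3617.3 in DKO tumors. The 9 macrophage markers summed to between 10.3 and 119 in cells and to between 3469 and 10763 in tumors, the 8 endothelial markers to between 18.4 and 96.2 and between 927 and 1446, and the 6 red blood cell markers to at most 9.66 and between 427 and 2254. The 5 T, NK and B cell markers reached at most 49.4 in any library, the 6 adipocyte markers at most 7.98 in cells and 164 in tumors, and the 3 keratinocyte markers at most 101 in cells and 180 in tumors. Their part in the higher Neat1, Malat1 and Meg3 of tumors was not tested. Between the WT and Experiment A KEAP1-KO tumors, whose leukocyte sums did not overlap, the fitted Neat1 values differed 1.08-fold. The red blood cell sums had medians of 1410 in WT, 1230 and 1238 in KEAP1-KO of Experiments A and B and 650 in DKO tumors, where Neat1 was lower. The tumor with the highest Neat1 had the highest red blood cell sum of its group in DKO (41049 and 1339.7) and WT (70089.8 and 2142.5). In KEAP1-KO of Experiment A it did not (54312.4 and 1215.7, against 2253.7 in another tumor), and in Experiment B it had the lowest sum (43822 and 772.02). None of the 6 red blood cell markers was called between DKO and WT tumors by limma (median log2 difference -1.06), and their part in the Neat1 values was not tested.

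By symbol rows, Malat1 was the member called between the tumors of Experiment B. The DKO tumors held 18815, 27840.4, 18562.3 and 29907.2 normalized counts of its symbol row and their KEAP1-KO counterparts 15376.3, 10841.4, 13487.8 and 11194.4. The groups did not overlap, and the DKO tumors varied more, with an SD of 5942 around 23781 against 2122 around 12725. The log2 difference was 0.88 ± 0.18, 1.84-fold, with an adjusted p of 0.0042 by limma, and the sum of the 3 Malat1 rows gave 0.84 ± 0.18 with an adjusted p of 0.0027. Malat1 was called in each of the 8 fits that left out 1 library of this comparison.

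In Experiment A the WT tumors held 19842.5, 17928.6, 22224.1 and 20706.9 normalized counts of Malat1 and the KEAP1-KO tumors 19387, 15982.9, 11567.6 and 17681.8. The groups overlapped through 1 KEAP1-KO tumor, and the log2 difference of -0.34 (95% interval -0.72 to 0.03) was not called by limma (adjusted p = 0.26), except with quantile normalization, which gave -0.63 (adjusted p = 0.019). DKO and WT tumors differed by 0.21 (95% interval -0.17 to 0.58, adjusted p = 0.55 by limma).

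The summed level of 9 fibroblast markers was higher in the DKO than in the Experiment B KEAP1-KO tumors, as Malat1 was, and 3 of the 8 markers tested were called, all higher, with a median log2 difference of 0.50 over the 8. The 9 markers summed to between 10807 and 14695 normalized counts in DKO tumors and between 2862 and 3593 in the Experiment B KEAP1-KO tumors, against between 4862 and 12260 in WT tumors and between 1984 and 4856 in Experiment A KEAP1-KO tumors, and between 374 and 723 in cells, with Fap at 0 in all 12 cell libraries. A large part of the sums was the Dcn row, a retained intron, at 4712 to 8034 in DKO and 570 to 1014 in Experiment B KEAP1-KO tumors. Within the DKO tumors, the tumor with the highest fibroblast sum, 14695, had the lowest Malat1, 18562.3. The order did not hold across all groups: the Experiment A KEAP1-KO tumors had a lower median sum than those of Experiment B, 2284 against 2982, and a higher mean of Malat1, 16155 against 12725. In the same comparison of Experiment B, 7 of 8 leukocyte markers (median log2 difference 1.01), 5 of 9 macrophage markers (0.66) and 3 of 5 tested skeletal muscle markers (1.29) were called higher in DKO tumors and none lower, beside 8.86% of all rows called. The part of these cell types in the Malat1 difference was not tested. In cultured cells Malat1 was not called between genotypes by limma: KEAP1-KO against WT gave -0.45 (adjusted p = 0.14) and DKO against KEAP1-KO 0.30 (adjusted p = 0.42).

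The cell libraries held Malat1 at 6427.3, 6452.8, 6737.7 and 4459 normalized counts in WT, 6189.8, 3539.4, 3958.5 and 4138.3 in KEAP1-KO and 5601, 5793.8, 6266.7 and 4076.4 in DKO cells. In each group 1 library stood off from the other 3, and the groups overlapped. Without the first KEAP1-KO library, which held 6189.8, the difference from WT became -0.62 and was called by limma (adjusted p = 0.024). All tumors were above all cell libraries, by 1.76 ± 0.19 in WT, 1.87 ± 0.19 in KEAP1-KO of Experiment A, 1.53 ± 0.19 in KEAP1-KO of Experiment B and 2.11 ± 0.19 in DKO on the log2 scale, with limma adjusted p-values between 8.2e-10 and 3e-07.

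**Figure D2:**
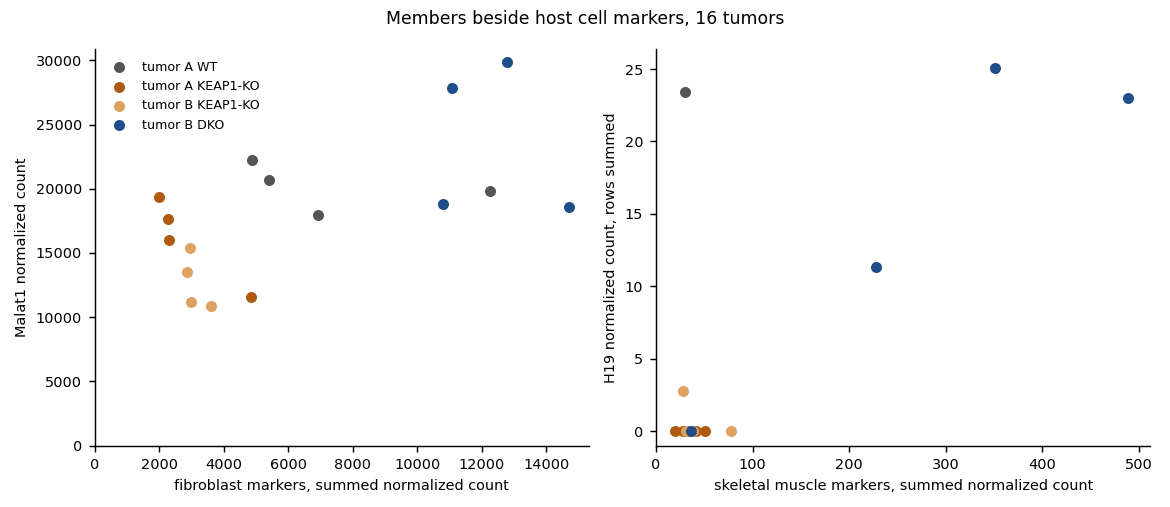
Each point is 1 of the 16 tumors, coloured by group. Left, the Malat1 normalized count against the summed normalized count of 9 fibroblast markers: the 4 DKO tumors lie between 10807 and 14695 on the horizontal axis and above all Experiment B KEAP1-KO tumors. Right, the summed normalized count of both H19 rows against 8 skeletal muscle markers: the 3 DKO tumors with muscle sums of 227.68 or more hold 11.3 to 25.1 counts of H19.

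Of the imprinted members, Kcnq1ot1 had the narrowest range. The WT tumors held 9352.2, 9597.9, 9680.1 and 9718.4 normalized counts and the Experiment A KEAP1-KO tumors 11287.1, 11451.1, 11556.4 and 10772.5. The groups did not overlap, and the log2 difference was 0.23 ± 0.05, 1.17-fold (adjusted p = 0.0026 by limma). It was not called with quantile normalization (0.13, adjusted p = 0.28) or without a trend in the variance (adjusted p = 0.12). The Experiment B KEAP1-KO tumors held 11708.8, 11139.4, 12185.9 and 11707.2 and the DKO tumors 11400.4, 10656.6, 9964.8 and 10380.2, which overlapped, with a difference of -0.14 (95% interval -0.24 to -0.04, adjusted p = 0.073 by limma). Without the first DKO tumor, at 11400.4, it was -0.18 and was called (adjusted p = 0.030 by limma).

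In cells Kcnq1ot1 was at 8209.6, 9313.3, 8729.2 and 9341.8 normalized counts in WT, 10578.6, 9272.1, 9837.1 and 9723.1 in KEAP1-KO and 10049.4, 10795.7, 10388.8 and 9749.5 in DKO libraries. The DKO libraries were above all WT libraries, by 0.20 ± 0.05 on the log2 scale (adjusted p = 0.016 by limma), and the KEAP1-KO libraries overlapped both. The call was lost with quantile normalization (adjusted p = 0.096), when rescaled without the 20 highest rows (adjusted p = 0.064), without a trend in the variance (adjusted p = 0.16) and with the replicate number as a block (adjusted p = 0.0504). Against cells, the differences of the tumors were 0.11 in WT, 0.19 in KEAP1-KO of Experiment A (adjusted p = 0.0016 by limma), 0.25 in KEAP1-KO of Experiment B (adjusted p = 0.00013) and 0.05 in DKO, beside medians over all rows of 0.20, 0.16, 0.17 and 0.23 in the same order. The call in KEAP1-KO of Experiment A was lost without a trend in the variance (adjusted p = 0.053 by limma). The direction of the 4 differences depended on the scaling, with -0.28, -0.039, -0.027 and -0.32 after median centring and 0.78 in WT and 0.75 in DKO after quantile normalization.

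Kcnq1, the potassium channel gene that Kcnq1ot1 runs through, did not move with it between genotypes. In Experiment A its protein-coding transcript row was lower in the KEAP1-KO than the WT tumors (-1.31 ± 0.12 on the log2 scale, adjusted p = 2.5e-06 by limma), where Kcnq1ot1 was higher, and higher in DKO than in Experiment B KEAP1-KO tumors (1.30 ± 0.12, adjusted p = 5.3e-06). In cells the KEAP1-KO line was below WT (-1.04 ± 0.12, adjusted p = 5.1e-05 by limma) and DKO above KEAP1-KO (0.67 ± 0.12, adjusted p = 0.0027). In tumors against cells it was higher by 2.36 in WT and 2.58 in DKO. Of 23 genes listed for the H19, Meg3 and Kcnq1ot1 domains, 15 were in the table. Of the 9 tested in tumors 3 were lower in Experiment A KEAP1-KO tumors (Kcnq1, Lsp1 and Tspan32, the last a gene of blood cells), with a median of -0.35 against -0.03 over all rows and beside 13.1% of all rows called, and 2 were higher in DKO tumors of Experiment B (Kcnq1 and Lsp1, which encodes a leukocyte cytoskeleton protein, by 1.61), with a median of 0.31 against 0 over all rows and beside 8.86% called.

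Meg3 was read in all 16 tumors and in no cell library. Its symbol row held 18, 13.3, 14.6 and 5.9 normalized counts in WT tumors, 8.9, 12.7, 8.7 and 11.7 in Experiment A KEAP1-KO tumors, 20, 25.1, 23.3 and 14.7 in Experiment B KEAP1-KO tumors and 13.1, 12.4, 17 and 13.6 in DKO tumors. A count of 0 in each of the 12 cell libraries allows up to 3 reads in a library. Measured against that floor per library, WT tumors were at least 3.95-fold higher than WT cells, KEAP1-KO tumors at least 3.84-fold (Experiment A) and 7.61-fold (Experiment B) higher than KEAP1-KO cells, and DKO tumors at least 4.76-fold higher than DKO cells. For the sum of the 4 rows the bounds were 7.40-fold, 7.90-fold, 13.2-fold and 9.82-fold in the same order.

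Between tumor groups no Meg3 difference was called. DKO against Experiment B KEAP1-KO tumors gave -0.44 (95% interval -0.95 to 0.07, adjusted p = 0.32 by limma) and KEAP1-KO against WT tumors of Experiment A -0.18 (95% interval -0.69 to 0.33, adjusted p = 0.72). The Experiment B KEAP1-KO tumors were all above those of Experiment A, by 0.76 (95% interval 0.25 to 1.27), which was not called either (adjusted p = 0.38 by limma). Counts of 5.9 to 25.1 limit what these tests can show.

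H19 was near the limit of detection. Its symbol row was at 0 in all 12 cell libraries and in 13 of the 16 tumors, and it held 23.4 normalized counts in 1 WT tumor, 2.8 in 1 KEAP1-KO tumor of Experiment B and 25.1 in 1 DKO tumor, so it entered no fit. With its second row added, the DKO tumors held 23, 11.3, 25.1 and 0. The DKO cells were all at 0, and 1 DKO tumor overlapped them. The Experiment B KEAP1-KO tumors were at 0, 2.8, 0 and 0. With so few libraries above 0, tests of the H19 sum only set libraries with reads beside libraries at 0, and none is read as a result.

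The 8 skeletal muscle markers summed to 488.71, 227.68, 351.3 and 36.668 normalized counts in the same 4 DKO tumors, in the same order, and to at most 77.982 in the other 12 tumors and at most 41.2 in cells. The DKO tumors with H19 reads were the 3 with the high muscle sums, while the WT tumor with 23.4 counts of H19 had a muscle sum of 30.54. The part of muscle in the H19 values was not tested. H19 is known as an abundant RNA of embryonic tissue and of muscle.

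Among 18 imprinted genes of other domains, 14 were in the table and 13 were tested in tumors. Of the 13 tested against cells, 6 did not pass the filter in cells and entered through tumors in which they were read, so their counts and median against cells are not given. Dcn (a retained intron row), which encodes the matrix proteoglycan decorin of fibroblasts, held 6.44 to 14.1 normalized counts in WT cells and 2438 to 3789 in WT tumors. Mest held at most 3.42 in WT cells and 184 to 221 in WT tumors, and Peg3 at most 2.17 and 105 to 209. In Experiment B, 2 were higher in DKO than in KEAP1-KO tumors, Dcn by 2.85 and Igf2r by 1.03, and 3 were lower, Mest (-1.57 ± 0.17, adjusted p = 1.7e-05 by limma), Peg3 (-1.36 ± 0.33, adjusted p = 0.017) and Gnas, beside 8.86% of all rows called. The median of the 13 was -0.35 against 0 over all rows.

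Of the snoRNA host genes, Snhg1 had the symbol row that was called lower in tumors than in cells of every genotype. The symbol rows of Snhg5 and Snhg12 also had lower means in tumors of every genotype, but were not called in all 4 comparisons. It held 319.3, 251.4, 322.9 and 332.6 normalized counts in WT cells, 202.5, 259.5, 275.3 and 216.7 in KEAP1-KO and 243.3, 257.5, 207.5 and 228.8 in DKO cells. The same row held 85.3, 56.2, 105.1 and 92.5 in WT tumors, 70, 74, 64.7 and 50.6 in Experiment A KEAP1-KO tumors, 48.9, 95, 63.9 and 81.4 in those of Experiment B and 59.2, 46.4, 66.4 and 39.2 in DKO tumors. Every tumor was below every cell library. The log2 difference was -1.83 ± 0.19 in WT, -1.82 ± 0.19 in KEAP1-KO of Experiment A, -1.70 ± 0.19 in KEAP1-KO of Experiment B and -2.09 ± 0.19 in DKO, between 3.24-fold and 4.26-fold lower (adjusted p between 8.7e-10 and 4.7e-08 by limma).

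Between genotypes the Snhg1 row was called in DKO against WT cells (-0.38 ± 0.12, adjusted p = 0.043 by limma), where the groups overlapped. That call was lost in 7 of 12 other settings, with adjusted p-values up to 0.22, and in 6 of 8 fits that left out 1 library. KEAP1-KO against WT cells gave -0.36 (adjusted p = 0.059 by limma), which was called with the mean filter of 25 normalized counts (adjusted p = 0.034), with quantile normalization (adjusted p = 0.039) and without the second WT library (-0.45, adjusted p = 0.019) or the third KEAP1-KO library (-0.43, adjusted p = 0.036). In tumors it differed by -0.35 (KEAP1-KO against WT, 95% interval -0.82 to 0.13, adjusted p = 0.38 by limma) and -0.41 (DKO against KEAP1-KO, 95% interval -0.89 to 0.06, adjusted p = 0.33). DKO against WT tumors gave -0.64 (adjusted p = 0.085 by limma), which was called with the mean filter (adjusted p = 0.048), with all 28 libraries in the fit (adjusted p = 0.027), by sums and without the second WT tumor.

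The symbol rows of Snhg5 and Snhg12 were uneven between libraries of 1 group. Snhg5 ranged from 43.2 to 210.9 normalized counts in WT cells and from 0 to 72.5 in the Experiment A KEAP1-KO tumors, and Snhg12 from 11.7 to 118.8 in DKO cells. Snhg5 was lower in tumors than in cells of the same genotype in KEAP1-KO of Experiment A (3.99-fold, adjusted p = 0.016 by limma) and in DKO (-1.78 ± 0.65, adjusted p = 0.029). The first rests on the KEAP1-KO tumor at 0, without which the log2 difference was -1.05 (adjusted p = 0.10 by limma), and was lost with only the groups compared in the fit (adjusted p = 0.075). The second was lost in 4 of 8 fits that left out 1 library (adjusted p up to 0.099), with a pseudocount of 0.4 (adjusted p = 0.12 by limma) and when rescaled without the 20 highest rows (adjusted p = 0.086). The Snhg5 row held 17.5, 9.3, 27.5 and 33.3 counts in DKO and 67.8, 50.3, 67 and 80.2 in Experiment B KEAP1-KO tumors, with no overlap. That difference (-1.53) was not called, except with only the groups compared in the fit (adjusted p = 0.014 by limma). The Snhg12 row was not called in DKO against KEAP1-KO tumors (-1.32, 95% interval -2.29 to -0.34, adjusted p = 0.095 by limma), except with only the groups compared in the fit (adjusted p = 0.039), and in DKO against WT tumors it was called with the mean filter (-1.44, adjusted p = 0.033). The Gas5 row held 16, 0, 0 and 0 counts in WT cells, was not called between genotypes of cells and was at 0 in all 4 DKO cell libraries and all 4 Experiment B KEAP1-KO tumors. The KEAP1-KO cells held 23.2, 41.9, 27.3 and 0 counts of Gas5. Without the cell library at 0, the row was called in KEAP1-KO against WT cells (2.51, adjusted p = 0.0076 by limma), and the calls gained in DKO against KEAP1-KO cells and in the test of NRF2 co-deletion compare with groups at 0. The row and the sum of Gas5 differed in sign in DKO tumors against DKO cells, at 0.39 (adjusted p = 0.66 by limma) and -1.99 (adjusted p = 5.9e-06).

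The sum of all rows of each gene was tested in the same way. In tumors against cells of the same genotype, the sums were called for 5 of 9 members in WT, beside 57.1% of all 18274 genes tested, for 8 of 9 in KEAP1-KO of Experiment A, beside 57.2%, for 7 of 9 in KEAP1-KO of Experiment B, beside 57.1%, and for 8 of 9 in DKO, beside 61%. These counts hold Meg3 and, in DKO, H19, whose cells were at 0. The Snhg12 sum was 399.1, 351.8, 425.8 and 385.2 normalized counts in WT cells and 192.2, 268.6, 294.3 and 213.9 in WT tumors, with no overlap (-0.70 ± 0.12, adjusted p = 2.8e-05 by limma). In DKO it was 244.3, 278.5, 248.3 and 273.2 in cells and 95.3, 136, 116.6 and 116.8 in tumors (-1.15 ± 0.12, adjusted p = 8.5e-09). The Snhg1 and Snhg12 sums were called lower in tumors in all 4 comparisons, the Gas5 sum in 3 of 4 (not WT, -0.52, adjusted p = 0.18) and the Snhg5 sum in 2 of 4, KEAP1-KO of Experiment A and DKO. The Snhg5 call in KEAP1-KO of Experiment A (-1.20, adjusted p = 0.014 by limma) was lost without the fourth tumor (-0.74, adjusted p = 0.10) or the fourth cell library (-1.01, adjusted p = 0.055).

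**Figure D3:**
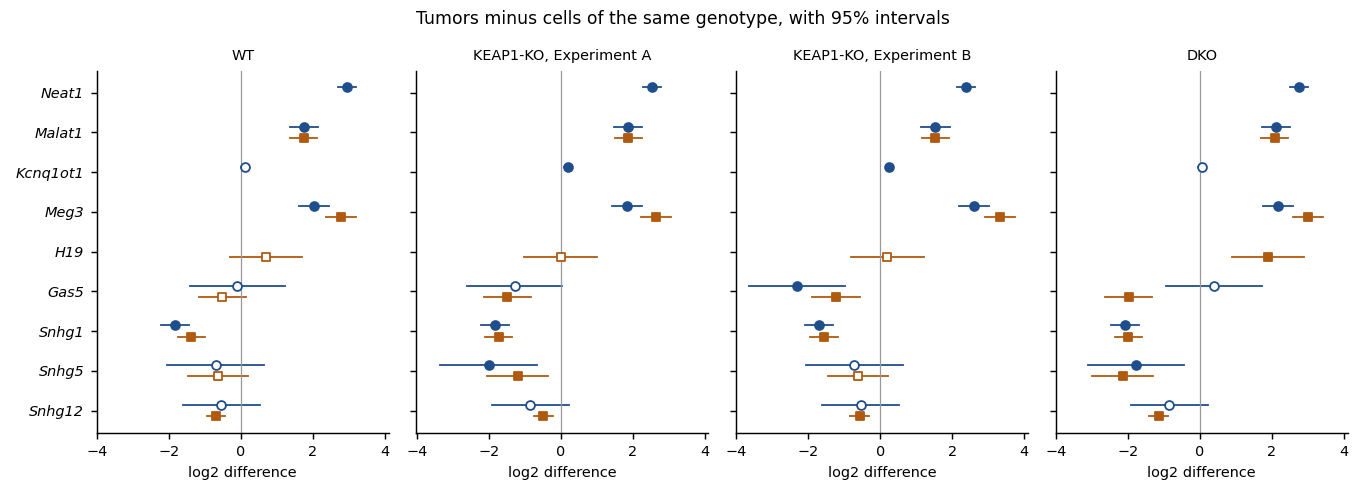
Log2 differences between tumors and cells of the same genotype (horizontal axis) for the 9 genes, with 95% intervals from limma, in 1 panel per tumor group. Circles are symbol rows, squares are sums of all rows of a gene, and filled marks had an adjusted p under 0.05. Neat1, Malat1 and Meg3 lie to the right of 0 and Snhg1 to the left in all 4 panels. Meg3 and H19 were at 0 counts in the cells, so their differences depend on the pseudocount.

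By sums, 3 of the 4 hosts were also lower in DKO than in Experiment B KEAP1-KO tumors. In that comparison 4 of 9 members were called, beside 18.3% of the 17380 genes tested: Malat1, which was higher, and Gas5, Snhg5 and Snhg12, which were lower. The Gas5 sum was 54.8, 165.9, 124.7 and 92.9 normalized counts in DKO and 184.5, 310, 341.9 and 161.6 in KEAP1-KO tumors, which overlapped by 1 tumor (-1.19 ± 0.31, adjusted p = 0.013 by limma). The Snhg5 sum was 17.5, 17.5, 27.5 and 33.3 in DKO and 67.8, 50.3, 93.3 and 80.2 in KEAP1-KO tumors, with no overlap (-1.47 ± 0.40, adjusted p = 0.016). The Snhg12 sum was 95.3, 136, 116.6 and 116.8 in DKO and 152.6, 198.3, 154.2 and 178.6 in KEAP1-KO tumors, again with no overlap (-0.54 ± 0.14, adjusted p = 0.012), and the Snhg1 sum differed by -0.51 (95% interval -0.97 to -0.04, adjusted p = 0.13 by limma). The leukocyte, macrophage, fibroblast and skeletal muscle markers given beside Malat1 were higher in the same DKO tumors, and their part in the lower hosts was not tested.

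With 1 library left out, between 3 and 6 members were called by sums in that comparison, and the call lost was that of Snhg5, at an adjusted p of 0.050 by limma without the third KEAP1-KO tumor. Calls were gained for Neat1 (-0.45, adjusted p = 0.042 by limma) and H19 without the fourth DKO tumor, and for Kcnq1ot1 (-0.18, adjusted p = 0.034) without the first. The fourth DKO tumor had no H19 reads, so that H19 call only sets tumors with reads beside KEAP1-KO tumors almost all at 0. Between the tumors of Experiment A the sums called 1 of 9 members, Kcnq1ot1, beside 25.9% of all genes, and the hosts differed by between -0.65 (Gas5, adjusted p = 0.15 by limma) and -0.15 (Snhg5, adjusted p = 0.84).

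DKO tumors were also compared with WT tumors by sums, across experiments and flanks. The sums called 4 of 9 members, all lower in DKO, beside 21.4% of all genes: Neat1, Gas5 (-1.60 ± 0.31, adjusted p = 0.0015 by limma), Snhg1 (-0.84 ± 0.22, adjusted p = 0.011) and Snhg12 (-1.03 ± 0.14, adjusted p = 7.2e-05). The WT and DKO tumors did not overlap for Gas5 and Snhg12 and overlapped for Snhg1. In the same comparison 3 of 5 tested skeletal muscle markers were higher in DKO (median log2 difference 1.67), 3 of 8 fibroblast markers were higher and 1 lower (0.21) and 2 of 8 leukocyte markers were lower (-0.42), and their part in these differences was not tested.

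In cells, the Snhg12 sum separated WT from both edited lines. It was 266.6, 293.6, 219.7 and 244.4 in KEAP1-KO cells, all below the 4 WT libraries (-0.61 ± 0.09, adjusted p = 0.00018 by limma), and DKO cells were below WT cells as well (-0.57 ± 0.09, adjusted p = 0.00026) but not below KEAP1-KO cells (difference 0.03, 95% interval -0.16 to 0.23, adjusted p = 0.86). By sums, 2 of 7 members, Neat1 and Snhg12, were called in KEAP1-KO against WT cells, beside 29.7% of the 15517 genes tested, 1 of 7, Neat1, in DKO against KEAP1-KO cells, beside 18.5%, and 3 of 7, Neat1, Snhg12 and Kcnq1ot1, in DKO against WT cells, beside 32.1%. The test of NRF2 co-deletion between tumors and cells called 1 of 9 sums, Snhg12 (-0.58 ± 0.18, adjusted p = 0.038 by limma), beside 9.14% of genes, and that call was lost in 9 fits that left out 1 library. WT is an unedited population and the edited lines are clones of 1 colony, so an effect of the edit and a difference between clones cannot be told apart here.

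**Figure D4:**
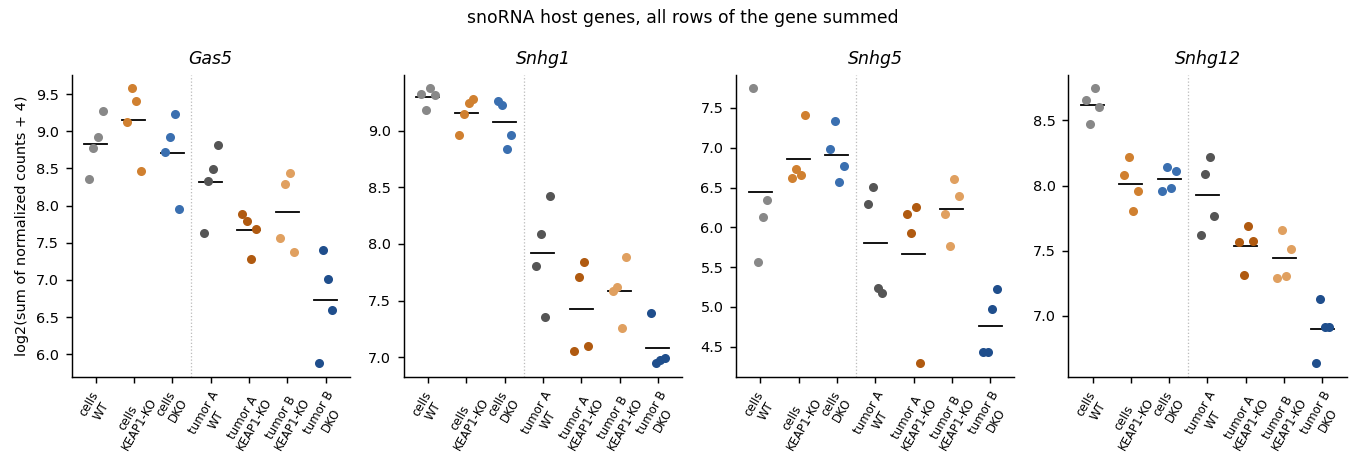
Sums of all rows of the 4 snoRNA host genes as log2(sum of normalized counts + 4), with 1 point per library, bars for group means of 4 libraries and a dotted line between cells and tumors. Snhg1 and Snhg12 sit lower in every tumor than in every cell library of the same genotype, and the DKO tumors have the lowest mean of the 7 groups for each of the 4 genes.

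**Figure D5:**
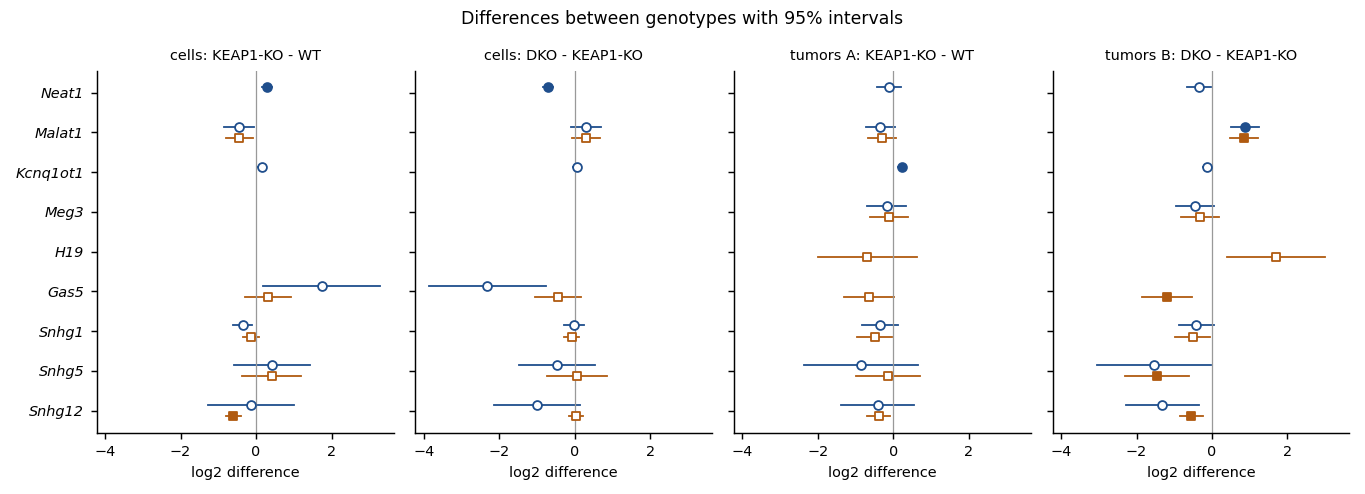
Log2 differences between genotypes (horizontal axis) for the 9 genes with 95% intervals from limma, in cells and in tumors of Experiments A and B. Circles are symbol rows, squares are sums of all rows, and filled marks had an adjusted p under 0.05. Neat1 is filled in both cell panels, the Snhg12 sum in KEAP1-KO against WT cells, Kcnq1ot1 in the tumors of Experiment A, and Malat1 with the sums of Gas5, Snhg5 and Snhg12 in the tumors of Experiment B.

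The counts in the lists that follow are read beside the shares of all rows called in either direction, 38.8% in WT and 43.5% in DKO tumors against cells, 13.1% and 8.86% in the tumors of Experiments A and B, and 15.5% and 8.83% in KEAP1-KO against WT and DKO against KEAP1-KO cells. Of 18 other snoRNA host genes, 15 were in the table, by rows of different kinds. In WT tumors against WT cells 6 of 14 tested were lower and 0 higher, a share near that of all rows, among them Dancr (-1.81 ± 0.18) and Snhg8 (-1.76 ± 0.21), both retained introns, and in DKO tumors against DKO cells 6 were lower and 1 higher. Snhg6 and Snhg20, the 2 of the 14 that did not pass the filter in cells, were not called in either. Between DKO and KEAP1-KO tumors 3 of 13 were lower and 0 higher (median -0.53 against 0): Mir17hg (-0.64 ± 0.12), Epb41l4aos (-0.89 ± 0.19) and Snhg8 (-0.93 ± 0.24). In Experiment A 2 were lower in KEAP1-KO than WT tumors, Dancr and Snhg15. Of 12 tested in KEAP1-KO against WT cells, 3 were lower, Snhg8 (-1.19 ± 0.15), Dancr and Mir17hg, and 1, Snhg15, was higher, and in DKO against KEAP1-KO cells 0 were called by limma, with Snhg4 nearest (-2.37, adjusted p = 0.054). In DKO against WT cells 6 of the 12 were lower and 1 higher (median -0.60 against -0.01), beside 17.7% of all rows called.

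The 14 factors of nonsense-mediated decay were all tested. In WT tumors against WT cells 8 were lower and 3 higher (median -0.39 against 0.20), led by the exon junction proteins Rbm8a (-1.32 ± 0.07, a retained intron row) and Eif4a3 (-0.95 ± 0.06). Between the tumors of Experiment B, 4 were lower and 1 higher in DKO: the helicase Upf1 (-0.44 ± 0.06), Smg5 (-0.46 ± 0.07), Upf3a (-0.52 ± 0.08) and Rbm8a (-0.45 ± 0.08) fell.

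Proteins of the bodies that hold Neat1 and Malat1 were listed too. Of 17 paraspeckle proteins 16 were in the table, and of the 14 tested 6 were lower and 0 higher in WT tumors than in WT cells (median -0.25 against 0.20), among them Nono (-1.02 ± 0.05), while Neat1 was higher. In KEAP1-KO against WT cells 1, Rbm14, was lower (-0.44 ± 0.05), in tumors of Experiment A 0 of 13 were called by limma, with Hnrnph3 nearest (0.43, adjusted p = 0.067), and in those of Experiment B 1, Nono, was lower (-0.30 ± 0.06). Of 12 nuclear speckle proteins 11 were tested, and 8 were lower and 2 higher in WT tumors than in WT cells (median -0.68 against 0.20). In tumors of Experiment B, where Malat1 was higher in DKO, 1 of 11 was lower, Srsf11 (-0.33 ± 0.08), and 0 were higher.

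Of 10 genes near Neat1 and Malat1, 8 were tested in cells. Where Neat1 was higher, in KEAP1-KO against WT cells, 5 were lower, among them Pola2 (-0.73 ± 0.05), a subunit of DNA polymerase alpha, and Fam89b (-0.99 ± 0.12), and 1 was higher, Cdc42ep2 (0.74 ± 0.12), with a median of -0.73 against 0.02 over all rows. In DKO against KEAP1-KO cells 3 were lower, Ltbp3, Pola2 and Cdc42ep2 (-0.51 ± 0.12), and 0 higher. Cdc42ep2 was the 1 gene of the list called in the direction of Neat1 in both of these comparisons, which share the KEAP1-KO cells. The KEAP1 effect on Cdc42ep2 differed between tumors and cells (-0.66 ± 0.18, adjusted p = 0.034 by limma). Between the tumors of Experiment B, where Malat1 was higher in DKO, 0 of 9 were called by limma, with Fam89b nearest (0.23, adjusted p = 0.18).

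Of 24 other long noncoding RNAs, 15 were in the table and tested. Mir22hg, the host of a microRNA, was called with the NRF2 genotype in both settings: it was higher in KEAP1-KO than in WT cells (0.92 ± 0.15) and tumors (0.66 ± 0.13) and lower in DKO than in KEAP1-KO cells (-0.77 ± 0.15) and tumors (-0.49 ± 0.13). Trp53cor1, the p53-induced lincRNA-p21, was higher in KEAP1-KO than in WT tumors (1.56 ± 0.28) and higher in DKO than in KEAP1-KO cells (0.58 ± 0.10), and lower in WT tumors than in WT cells (-2.54 ± 0.22). In all, 2 of 15 were higher and 2 lower in tumors of Experiment A, 1 and 3 in tumors of Experiment B, 3 and 4 in KEAP1-KO against WT cells and 1 and 2 in DKO against KEAP1-KO cells. As a check, of 9 NRF2 targets and edited genes 7 were higher and 1 lower in KEAP1-KO against WT tumors, and 0 higher and 7 lower in DKO against KEAP1-KO tumors.

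The rows most like each member over the 28 libraries were found by Pearson's r among 16564 rows, which share libraries and the division between tumors and cells. Neat1 was most like the hemoglobin genes Hbb-bs (r = 0.985) and Hba-a2 (r = 0.984), and Meg3 most like Rgs5 (r = 0.981), a pericyte gene, and Meox2 (r = 0.981). Malat1 was most like Dcn (r = 0.963) and Rsu1 (r = 0.956), Snhg1 like Ndufv2 (r = 0.978), Med19 and Rbm8a (r = 0.976), and Kcnq1ot1 like Slc9a2 (r = 0.870). The closest rows were less alike for Snhg5 (r = 0.751), Snhg12 (r = 0.733) and Gas5 (r = 0.661), whose symbol rows varied most between libraries of a group.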

How the data were processed

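RNA of 12 cell libraries and 16 tumors was sequenced as 150-base paired-end reads from strand-specific libraries after removal of ribosomal RNA. The authors quantified reads with Salmon on mouse transcripts that they give as version 35 of GENCODE, and the genome build is not given in the sources used here. The authors deposited log2(normalized count + 4), a form inferred from the values, since undoing the transform gave whole reads, within 0.05, for 100% of the low values checked. The labels' extraction text names liver, and the study's description of tumors and cells was used. Rows were assigned to genes by GENCODE vM21, another release, which held 95.9% of the row identifiers.

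Groups came from the sample titles. The deposited log2 values went into limma 3.58.1 (R 4.3.3), after a filter of 5 normalized counts in 4 libraries, in fits of all tumors, all cells or all 28 libraries for 13 comparisons and Benjamini-Hochberg adjustment over all rows at 0.05. Intervals are 95% intervals. On simulated tables the fit recovered 86% of rows changed 2-fold and 24% of those changed 1.5-fold in DKO against KEAP1-KO tumors (33058 rows tested), with 8.3% of calls false. The simulated rows all had the same fixed variation beyond counting noise, and only rows above a floor of mean counts were changed. Recovery was not simulated for rows as uneven as Snhg5 or as low as Meg3, so these shares do not apply to them. The members and lists were chosen with earlier results of these data known. All members were named, and up to 4 genes of each other list by adjusted p. The rows most like a member were the 3 with the highest r. Same-numbered libraries were not taken as pairs, because the labels do not tie a number to a mouse or day and their deviations correlated at between -0.034 and 0.040. Alternatives covered the pseudocount, filter, scaling, variance trend, threshold, sums of rows, replicate block, groups in the fit and each library left out. Leaving libraries out of the sums was added after seeing the data.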

Additional observations from a re-analysis of the deposited data

Results flagged for a closer look

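In 63 groups of 4 libraries the gap of the highest or lowest log2 value to its neighbour was compared with the range by Dixon's test at its 95% critical value. The chance rate of about 1 in 20 groups does not hold for groups with libraries at 0. A group all at 0 cannot pass, and a group with reads in only 1 library always does. The gap passed it in 8. Malat1 was low in the fourth WT cell library, at 12.12 against 12.65 to 12.72 in the others, and Snhg1 was low in the second, at 7.997 against 8.34 to 8.39. Snhg5 was high in the fourth KEAP1-KO cell library, at 7.41 against 6.63 to 6.66. The other 5 are single libraries with reads where the other 3 had 0 counts: Gas5 in the first WT cell library (4.32) and the first DKO tumor (3.54), and H19 in the first WT tumor (4.77), the second KEAP1-KO tumor of Experiment B (2.76) and the third DKO tumor (4.86), where 2 stands for 0 reads.

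The Snhg12 sum stood out because the effect of NRF2 co-deletion differed between tumors of Experiment B and cells, by -0.58 ± 0.18 on the log2 scale (adjusted p = 0.038 by limma over all sums). DKO against KEAP1-KO gave -0.54 in tumors and 0.03 in cells. The call was lost in 9 fits that left out 1 library, with adjusted p-values up to 0.095, and the symbol row alone gave -0.31 (adjusted p = 0.91).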

How the results depend on the processing

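Over all alternatives, including the left-out libraries, differences of the symbol rows kept their direction and their side of the threshold in 1846 cases, gained a call in 50, lost it in 41 and reversed in 5. The reversals were Kcnq1ot1 against cells after median centring (-0.28 in WT, -0.039 and -0.027 in KEAP1-KO of Experiments A and B, -0.32 in DKO tumors) and Gas5 in DKO tumors against cells by sums (-1.99). The counts of members called moved as follows, and the cause was not tested. With a log2 difference of at least 1, 0 were called in each comparison between genotypes of tumors or cells. Without a variance trend 0 were called in KEAP1-KO against WT tumors, 0 in KEAP1-KO against WT cells and 1 in DKO against WT cells. In DKO against KEAP1-KO tumors 2 were called with the mean filter of 25, 4 by sums and 3 with only the groups compared. In DKO against WT tumors 4 were called with the mean filter, 0 with quantile normalization, 2 when rescaled without the 20 highest rows, 4 by sums, 0 with only the groups compared and 3 with all 28 libraries. In KEAP1-KO against WT cells 2 were called with the mean filter, 2 with quantile normalization and 2 by sums, and in DKO against KEAP1-KO cells 2 with all 28 libraries. By sums 8 were called in DKO tumors against DKO cells. The test of the KEAP1 effect between tumors and cells called 1 after median centring (Kcnq1ot1), and that of NRF2 co-deletion called 1 after quantile normalization (Neat1), 1 after median centring (Kcnq1ot1) and 1 by sums (Snhg12). Leaving out 1 library gave 1 to 2 calls in DKO against KEAP1-KO cells, DKO against KEAP1-KO tumors, DKO against WT tumors and KEAP1-KO against WT cells, and 0 to 1 for NRF2 co-deletion, where Gas5 was called without the fourth KEAP1-KO cell library. By sums it gave 1 to 2 in KEAP1-KO against WT tumors, 2 to 4 in KEAP1-KO against WT cells, 0 to 1 for the KEAP1 effect and 0 to 2 for NRF2 co-deletion. With the replicate number as a block, 1 member was called in DKO against WT cells in place of 3 and the other counts of members kept to within 1.5 times. In that comparison each library correlated best with the library of its own number, at 0.024 to 0.038, a hint from the data and not from the design. No block could be fitted for DKO against WT tumors, tumors against cells or the KEAP1-KO tumors of both experiments. A log2 difference of at least 1 cut the calls over all rows in each of the 13 comparisons: from 4483 to 1976 and from 3031 to 1181 in the tumors of Experiments A and B, from 3616 to 1001 in DKO against WT tumors, from 4599 to 1357, 2627 to 723 and 5254 to 1500 in KEAP1-KO against WT, DKO against KEAP1-KO and DKO against WT cells, from 14450 to 7226, 14764 to 7280, 14446 to 6852 and 16190 to 8903 in WT, both KEAP1-KO and DKO tumors against cells, and from 2003 to 1327 and 1368 to 769 for the KEAP1 and NRF2 co-deletion effects. The mean filter of 25 gave 9365, 9624 and 10073 in WT, Experiment B KEAP1-KO and DKO tumors against cells. Between the KEAP1-KO tumors of both experiments 56 calls became 20 without a filter, 8 without a trend, 25 with the log2 threshold, 94 by sums, 6 with only both groups and 124 with all 28 libraries, and 0 to 43 with 1 library left out. Further calls were gained with 1 library left out: in DKO against WT tumors Snhg1 without the second WT tumor (-0.81), Snhg12 without the fourth WT tumor (-1.92) or the first DKO tumor (-1.68) and Kcnq1ot1 without the third DKO tumor (0.17), and Snhg12 in DKO tumors against DKO cells without the first DKO cell library (-1.46). Meg3, H19 and Gas5 were at or near the read limit.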
